A study of Mus musculus with 18 samples.

Results

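Podxl and Anpep, which encode the surface glycoproteins podocalyxin and aminopeptidase N (CD13), were followed across arrays of Lin-Kit+ bone marrow cells from Balb/c mice with JAK2V617F-induced myeloproliferative neoplasm (MPN). They are 2 of 9636 genes with a probe set of their own in the deposited table, and each had 1 probe set in that table. Members were found by their annotated symbols, and the pair had been chosen from these same arrays with the differences between the genotypes known. Those differences are therefore given as a description, with no test. The comparisons of the TNF receptor blocking antibodies (BAs) within a genotype are other contrasts and were tested.

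The MPN was induced by transplanting donor marrow cells transduced with a retrovirus that carries JAK2V617F and GFP, so that JAK2V617F+ cells were sorted as GFP+ and JAK2V617F- cells as GFP- from the same cultures. Marrow of several mice per experiment was cultured for 16 h in IL-3 at 50 ng/mL and SCF at 100 ng/mL, and was left untreated or received a BA against TNFR1 or TNFR2 at 10 μg/mL. This gave 6 groups of 3 arrays, the 3 treatments in JAK2V617F- and the same in JAK2V617F+ cells. The GFP- cells share the diseased marrow with the GFP+ cells and are not cells of healthy mice, and the vector drives JAK2V617F in every cell it entered.

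Podocalyxin is a sialomucin of the CD34 family, with a heavily glycosylated extracellular stretch and a short tail that binds NHERF adaptors and, through them or directly, the ezrin family that links the membrane to actin. In blood formation it is found on hematopoietic stem and progenitor cells, on cells of the erythroid and platelet lineages and on vascular endothelium. Aminopeptidase N is a zinc-dependent exopeptidase of the M1 family that removes amino acids from the N-terminus of peptides outside the cell, and as CD13 it is a standard marker of myeloid progenitors, granulocytes and monocytes.

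The RefSeq start of Anpep lies in a GC-rich stretch, and the 250 bases before it are shown (GRCm38.p6, chr7:79848211-79848460, minus strand, written 5′ to 3′ in the direction of transcription). A promoter sequence of Podxl was not available here. The part of these bases in the Anpep signals was not tested. Capitals mark the GC box GGGCGG, which was searched on both strands and occurred 3 times.
Anpep: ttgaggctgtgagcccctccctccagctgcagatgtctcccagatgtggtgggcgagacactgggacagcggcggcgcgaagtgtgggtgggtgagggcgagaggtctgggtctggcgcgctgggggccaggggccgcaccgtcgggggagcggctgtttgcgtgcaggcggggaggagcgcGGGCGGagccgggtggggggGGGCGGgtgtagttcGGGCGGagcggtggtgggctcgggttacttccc
Of 32851 promoters of this length, 32.7% hold a GC box. The Anpep stretch has 23 CpG dinucleotides, where the median promoter has 6, and 72.8% of its bases are G or C. The ETS core GGAAGT occurred 1 time, on the reverse strand close to the start and apart from the GC boxes, and 19.7% of promoters hold it. The STAT element TTCNNNGAA, the GATA element AGATAA and the E-box CACGTG occurred 0 times in these letters, and 7.02%, 9.99% and 6.02% of promoters hold them.

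The values are log2 signals per probe set as the authors deposited them, from 2.22, a lowest value that 3.02% to 5.88% of probe sets shared on the arrays used, to 15.49. The paper left out untreated JAK2V617F+ replicate 3 for its quality, and it stayed out of the means and fits here. Its median log2 signal was 6.05, against 7.41 to 7.75 on the other arrays, and its mean correlation with them was 0.574, against 0.680 to 0.777 among the 17 arrays used. Nothing in the table tells how bright a probe set must be to be detected, so a signal near 2.22 gives only a low level, and a difference from it may be understated. Some values above 2.22 also recurred for a gene on different arrays. Podxl was at 2.362 on TNFR2 BA-treated JAK2V617F- replicates 2 and 3. It was at 3.851 on untreated JAK2V617F- replicate 2 and on the array left out. Anpep was at 2.829 on TNFR1 BA-treated JAK2V617F+ replicate 1 and untreated JAK2V617F- replicate 3. The cause was not tested. The log2 signal of Kit, the receptor used for the sort, averaged 7.32 ± 1.94 (SD, n = 8) over JAK2V617F+ and 7.02 ± 1.87 (SD, n = 9) over JAK2V617F- arrays. Of the lineage antigens, Cd8a and Itgam were measured and had medians over the 17 arrays of 2.56 and 4.39.

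Podxl was high in every JAK2V617F+ array used and low in every JAK2V617F- array. In untreated JAK2V617F+ cells its log2 signal was 9.74 and 8.49 in replicates 1 and 2. With TNFR1 BA it was 9.25, 10.08 and 7.42, and with TNFR2 BA 8.44, 8.29 and 10.23. The 3 groups of JAK2V617F+ cells overlapped one another, and no treatment stood apart.

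In JAK2V617F- cells the Podxl log2 signal was 3.90, 3.85 and 3.46 when untreated. It was 4.18, 5.06 and 2.29 with TNFR1 BA and 3.37, 2.36 and 2.36 with TNFR2 BA. The lowest JAK2V617F+ array, at 7.42, lay above the highest JAK2V617F- array, at 5.06. Among all probe sets, 23 (0.223%) had each JAK2V617F+ array above each JAK2V617F- array, and since this is the difference for which the gene was taken up, nothing is read from the place of Podxl among them.

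Over the 3 treatments, the Podxl log2 signal averaged 8.99 ± 0.99 (SD, n = 8) over JAK2V617F+ and 3.43 ± 0.95 (SD, n = 9) over JAK2V617F- arrays. The difference between the genotypes in log2 signal was 5.38 without a BA, 5.07 with TNFR1 BA and 6.29 with TNFR2 BA. Under each of these treatments every Podxl array of JAK2V617F+ cells lay above every array of JAK2V617F- cells, as did 10.2%, 6.43% and 5.05% of all probe sets. At an adjusted p under 0.05 from limma, 0.358% of all probe sets differed between the genotypes over the treatments and 0.3% were higher in JAK2V617F+ cells, and the shares within untreated, TNFR1 BA and TNFR2 BA cells were 0.0774%, 0.0871% and 0.0387%. These shares are given as background, and nothing is read from them for either gene. Within pairs of arrays with the same treatment and replicate number it was above 0 in all pairs used, and averaged 5.33 over the 3 pairs of replicate 1, 5.19 over the 3 of replicate 2 and 6.50 over the 2 of replicate 3. On the array the paper left out the Podxl log2 signal was 3.85, within the range of the JAK2V617F- arrays. With that array included the untreated difference was 3.62.

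**Figure D1:**
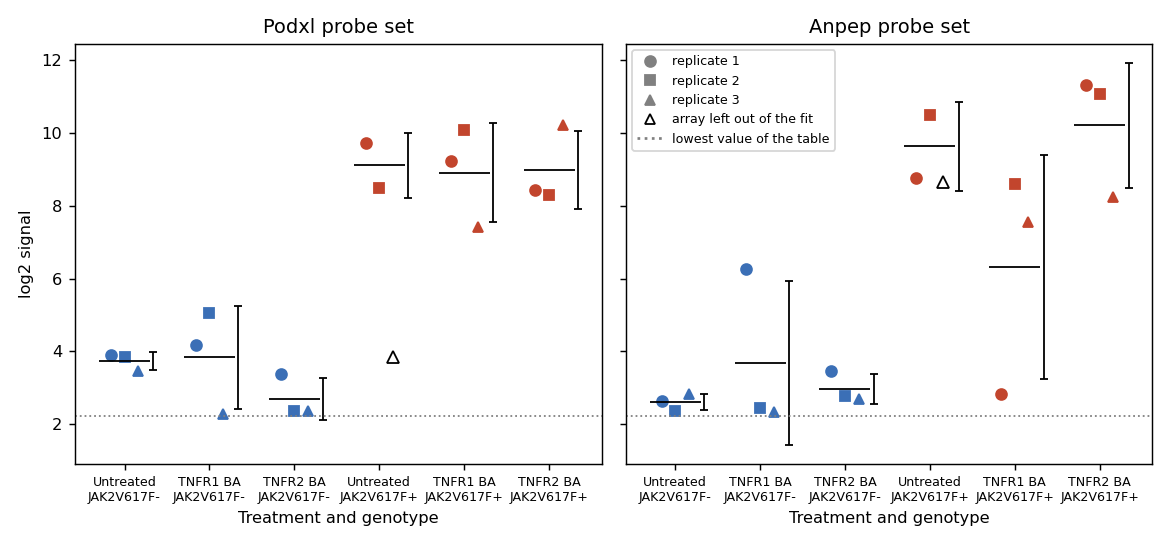
Log2 signal of the Podxl probe set (left) and the Anpep probe set (right) on each array, by treatment and genotype, with replicates marked by shape. Horizontal lines are means and bars SDs of the arrays used, the open triangle is the array left out of the fit and the dotted line is the lowest value of the table. Podxl separates the genotypes on every array used, whereas Anpep is at 2.83 in 1 TNFR1 BA-treated JAK2V617F+ array and at 6.27 in 1 TNFR1 BA-treated JAK2V617F- array.

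Anpep was high in untreated and TNFR2 BA-treated JAK2V617F+ cells and spread widely in the TNFR1 BA-treated ones. Its log2 signal in untreated JAK2V617F+ cells was 8.77 and 10.50 in replicates 1 and 2. It was 11.33, 11.07 and 8.24 with TNFR2 BA. With TNFR1 BA it was 2.83, 8.60 and 7.57, so that replicate 1 stood at the level of the JAK2V617F- arrays and all 3 arrays lay below both untreated ones. Among all probe sets, 7.86% had every TNFR1 BA-treated JAK2V617F+ array below both untreated ones. On the replicate 1 array 5.88% of probe sets were at the lowest value, the highest share among the 17 arrays used, its median log2 signal was 7.42, and its mean correlation with the other arrays, 0.716, was above only that of untreated JAK2V617F+ replicate 2. The part of these values in its Anpep signal was not tested.

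In JAK2V617F- cells the Anpep log2 signal was 2.65, 2.38 and 2.83 when untreated and 3.46, 2.77 and 2.69 with TNFR2 BA. It was 6.27, 2.45 and 2.33 with TNFR1 BA, where replicate 1 was again the array that stood apart. Without it, all JAK2V617F- arrays lay at or under 3.46. In the TNFR1 BA-treated pair of replicate 1, Anpep was thus lower in JAK2V617F+ than in JAK2V617F- cells by 3.44 on the log2 scale, while Podxl in the same pair was higher, at 9.25 and 4.18. The mast cell tryptase gene Tpsab1 also kept to the labels in this pair, at 12.43 and 2.25.

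Over the 3 treatments, the Anpep log2 signal averaged 8.61 ± 2.72 (SD, n = 8) over JAK2V617F+ and 3.09 ± 1.24 (SD, n = 9) over JAK2V617F- arrays. The difference between the genotypes was 7.02 without a BA, 2.65 with TNFR1 BA and 7.24 with TNFR2 BA, and with TNFR1 BA it was 5.69 without replicate 1 and 0.90 without replicate 2. The standard deviation within groups was 1.83 for Anpep and 1.03 for Podxl, against a median of 1.45 over all probe sets. On the array the paper left out, the Anpep log2 signal was 8.66, next to the 8.77 of untreated JAK2V617F+ replicate 1.

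Placed in order of their mean log2 signals, the Podxl groups ran from untreated JAK2V617F+ (9.12) over TNFR2 BA-treated (8.99) and TNFR1 BA-treated JAK2V617F+ (8.92) to TNFR1 BA-treated (3.84), untreated (3.74) and TNFR2 BA-treated JAK2V617F- cells (2.70). Neighbours within JAK2V617F+ cells differed by less than the larger of their SDs. So did TNFR1 BA-treated and untreated JAK2V617F- cells, whereas TNFR2 BA-treated JAK2V617F- arrays lay below all untreated ones, as did 4.03% of all probe sets. The Anpep groups ran from TNFR2 BA-treated JAK2V617F+ (10.21) over untreated (9.63) and TNFR1 BA-treated JAK2V617F+ (6.33) to TNFR1 BA-treated (3.68), TNFR2 BA-treated (2.97) and untreated JAK2V617F- cells (2.62). Of these neighbours, only untreated and TNFR1 BA-treated JAK2V617F+ cells were apart by more than the larger SD, 3.30 against 3.08.

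To ask whether a BA changed either gene, each BA was compared with untreated cells and with the other BA within each genotype, and the effect of each BA was compared between the genotypes. None of the 16 differences passed an adjusted p of 0.05 from limma, which adjusts over all 10335 probe sets (0 of 16, and 1 with an unadjusted p under 0.05). The share of all probe sets that passed was 0.00968% for TNFR1 BA and 0.029% for TNFR2 BA in JAK2V617F+ cells, and 0% in the other comparisons of the BAs. Both comparisons with untreated JAK2V617F+ cells use the same 2 arrays, and those with untreated JAK2V617F- cells the same 3.

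Podxl differed in JAK2V617F+ cells by -0.20 with TNFR1 BA (95% confidence interval -2.90 to 2.50, adjusted p = 1 from limma) and by -0.13 with TNFR2 BA (-2.83 to 2.57, adjusted p = 1) on the log2 scale. In JAK2V617F- cells it differed by 0.11 with TNFR1 BA (-2.31 to 2.52) and by -1.04 with TNFR2 BA (-3.45 to 1.38). Between the BAs it differed by 0.07 (-2.35 to 2.48) in JAK2V617F+ and by -1.15 (-3.56 to 1.27) in JAK2V617F- cells. The sign of the small JAK2V617F+ differences turned when single arrays were left out, with values from -0.83 to 0.55 for TNFR1 BA and from -0.76 to 0.50 for TNFR2 BA. These intervals leave room for differences of 2 log2 units in either direction in JAK2V617F+ cells.

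Anpep differed in JAK2V617F+ cells by -3.30 on the log2 scale with TNFR1 BA (95% confidence interval -6.85 to 0.25, unadjusted p = 0.0664 and adjusted p = 0.789 from limma). Without TNFR1 BA JAK2V617F+ replicate 1 this difference was -1.55. With TNFR2 BA it was 0.58 (-2.97 to 4.13, adjusted p = 1). The direct comparison of TNFR2 BA with TNFR1 BA in JAK2V617F+ cells gave the single unadjusted p under 0.05, with a difference of 3.88 (0.71 to 7.06, unadjusted p = 0.0194 and adjusted p = 1 from limma). Without TNFR1 BA JAK2V617F+ replicate 1 it was 2.13, and the arrays of both groups overlapped with or without that replicate.

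In JAK2V617F- cells, Anpep differed by 1.07 with TNFR1 BA (95% confidence interval -2.11 to 4.24) and by -0.23 without TNFR1 BA JAK2V617F- replicate 1. It differed by 0.36 with TNFR2 BA (-2.82 to 3.53). The effect of TNFR1 BA on Anpep differed between the genotypes by -4.37 (-9.13 to 0.40, unadjusted p = 0.0699 and adjusted p = 0.938 from limma), by -2.62 without TNFR1 BA JAK2V617F+ replicate 1 and by -3.08 without TNFR1 BA JAK2V617F- replicate 1. For TNFR2 BA the effects differed by 0.23 (-4.54 to 4.99). For Podxl these differences between the genotypes were -0.30 (-3.93 to 3.32) for TNFR1 BA and 0.91 (-2.71 to 4.53) for TNFR2 BA. The latter was 0.28 without untreated JAK2V617F+ replicate 2, 0.29 without TNFR2 BA JAK2V617F+ replicate 3, 1.54 without untreated JAK2V617F+ replicate 1 and 2.66 with all 18 arrays.

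**Figure D2:**
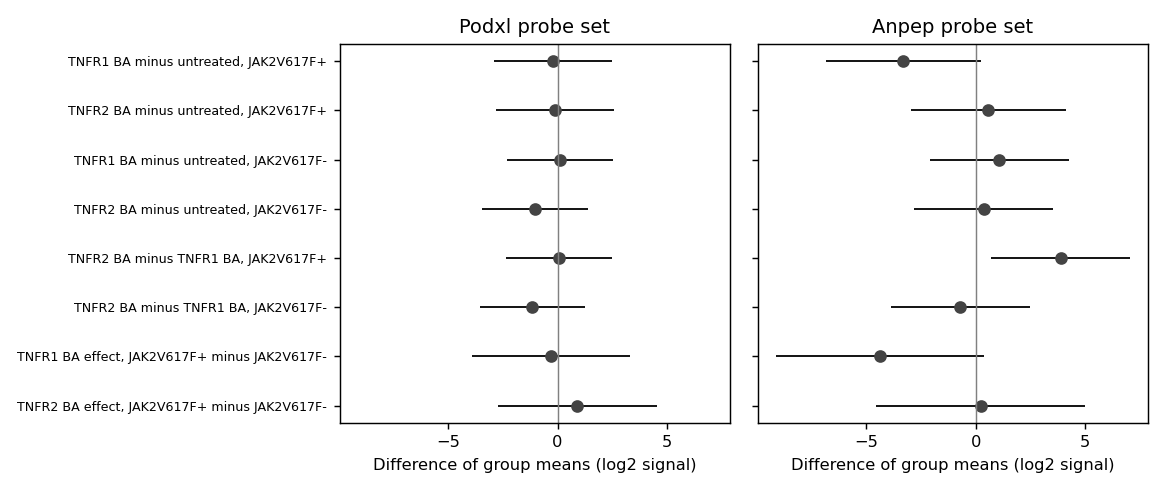
Differences of group means in log2 signal for the Podxl (left) and Anpep (right) probe sets, for each BA against untreated cells, between the BAs, and between the genotypes in the effect of each BA. Points are limma estimates and lines 95% confidence intervals. Every Podxl interval spans 0, and of the Anpep intervals the one for TNFR2 BA against TNFR1 BA in JAK2V617F+ cells, 0.71 to 7.06, does not.

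Across the 17 arrays, the log2 signals of Podxl and Anpep correlated with each other (Pearson r = 0.77, Spearman rho = 0.70). All points share the split between the genotypes. Within the 8 JAK2V617F+ arrays r was -0.23 and within the 9 JAK2V617F- arrays 0.26, and the deviations of the 17 arrays from their group means gave -0.16. These correlations are descriptions and were not tested. Ranked by r, Anpep was 26th among 9635 genes for Podxl, and Podxl was 18th for Anpep. Both genes were chosen for their difference between the genotypes, so nothing is read from these ranks.

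**Figure D3:**
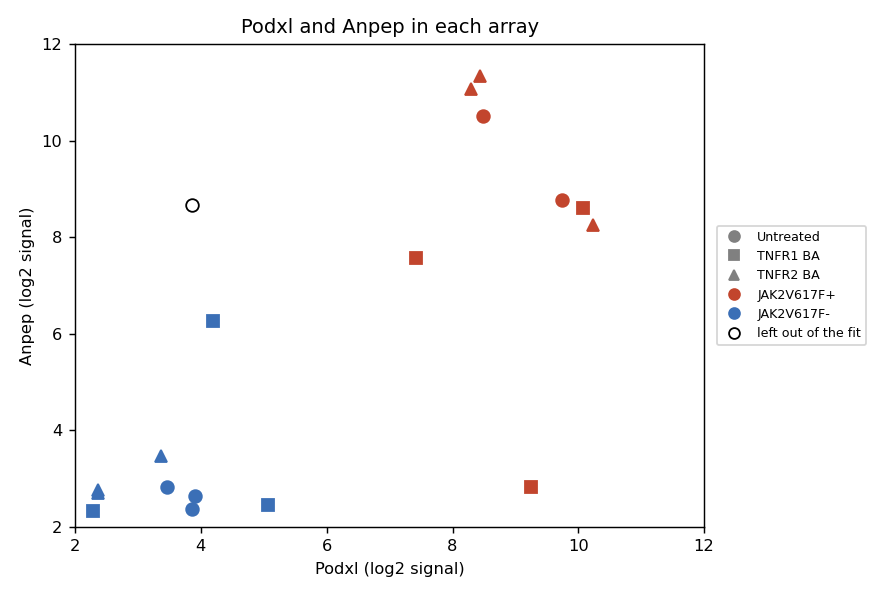
Log2 signal of Anpep against that of Podxl on each array, with treatment marked by shape and genotype by colour (JAK2V617F+ red, JAK2V617F- blue). The open circle is the untreated JAK2V617F+ array left out of the fit, with Podxl at 3.85 and Anpep at 8.66, and the JAK2V617F+ arrays show no common slope (r = -0.23, n = 8).

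By Pearson correlation over the 17 arrays, the 5 genes most like Podxl were Tpsb2 (0.92), Mycn (0.92), Maob (0.90), Tpsab1 (0.88) and Lif (0.88). Tpsb2 and Tpsab1 encode mast cell tryptases, Mycn a transcription factor of the MYC family, Maob the mitochondrial enzyme monoamine oxidase B, and Lif a cytokine of the IL-6 family. The log2 signal of Tpsb2 averaged 10.06 ± 1.02 (SD, n = 8) over JAK2V617F+ and 2.81 ± 0.33 (SD, n = 9) over JAK2V617F- arrays, and that of Maob 8.37 ± 0.75 and 3.32 ± 1.35. The deviations from group means of these genes correlated with those of Podxl by -0.42 for Tpsb2, -0.54 for Mycn, 0.11 for Maob, -0.22 for Tpsab1 and -0.53 for Lif. None of these 5 was above 0.11. Podxl was chosen for its difference between the genotypes, and these genes for their likeness to it over the same arrays. Nothing is therefore read from where that likeness lies.

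The 5 genes most like Anpep were Rhoj (0.87), Tpsb2 (0.86), Mast2 (0.85), Rnf128 (0.84) and Enah (0.83). Rhoj encodes a small GTPase of the CDC42 group, Mast2 a serine/threonine kinase, Rnf128 the ubiquitin ligase GRAIL and Enah an actin regulator of the Ena/VASP family. Here the deviations from group means correlated with those of Anpep by 0.83 for Mast2, 0.61 for Enah, 0.52 for Rnf128, 0.40 for Tpsb2 and 0.17 for Rhoj. The log2 signal of Mast2 was 4.31 in TNFR1 BA-treated JAK2V617F+ replicate 1, where its other JAK2V617F+ arrays lay between 7.92 and 11.30, and of 8.57 in TNFR1 BA-treated JAK2V617F- replicate 1, where its other JAK2V617F- arrays reached 7.80. These are the same 2 arrays in which Anpep left the range of its genotype. Mast2 was picked for its likeness to Anpep over these arrays, so the shared deviation is in part a product of that choice.

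Relatives and partners of Podxl and Anpep were compared between the genotypes as well. In 5 lists of the CD34 family, podocalyxin-binding proteins, M1 aminopeptidases, other surface peptidases and surface antigens of stem and progenitor cells, 43 other genes were measured. Over the treatments limma called 0 of them higher and 0 lower in JAK2V617F+ cells (adjusted p under 0.05), where 0.358% of all probe sets passed, and 7 had an unadjusted p under 0.05, as did 1063 of all 10335 probe sets. With so low a share among all probe sets, the count of 0 is no result about these genes.

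Of the CD34 family, Cd34 itself was measured beside Podxl and was high in both genotypes. Its log2 signal averaged 10.50 ± 0.47 (SD, n = 8) over JAK2V617F+ and 10.45 ± 1.50 (SD, n = 9) over JAK2V617F- arrays, a difference of 0.08 (95% confidence interval -0.97 to 1.14, adjusted p = 0.972 from limma). The third member, Podxl2, was not analysed here.

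Of 6 podocalyxin-binding and membrane linker genes, 5 were measured. The NHERF adaptor gene Slc9a3r1 averaged 8.86 ± 1.07 (SD, n = 8) over JAK2V617F+ and 7.74 ± 0.58 (SD, n = 9) over JAK2V617F- arrays on the log2 scale, a difference of 1.18 (0.05 to 2.30, adjusted p = 0.464 from limma). The related adaptor gene Slc9a3r2 averaged 4.09 and 3.56. The linkers of the membrane to actin, Ezr (ezrin), Msn (moesin) and Rdx (radixin), were bright in both genotypes and differed by 0.23, -0.20 and -0.40, with intervals that reached no further than 0.98 from 0.

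Of the other M1 aminopeptidases 6 of 10 were measured, and their median difference was -0.14, with 3 above and 3 below 0. Erap1, which trims peptides for MHC class I, differed by -0.31 (95% confidence interval -1.58 to 0.97), and Lta4h, which makes leukotriene B4, by -0.64 (-2.01 to 0.73). Npepps, the puromycin-sensitive cytosolic enzyme, differed by -0.64 (-2.04 to 0.77) and was dim in both genotypes, at 3.15 and 3.73. Rnpep, aminopeptidase B, differed by 0.89 (-0.72 to 2.51), Rnpepl1 by 0.03 (SE 0.68) and Aopep by 1.28 (-0.36 to 2.91).

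Of 17 other surface and granule peptidases 10 were measured, 8 of them with a difference above 0 and a median of 0.85. The erythroid endopeptidase gene Kel averaged 5.05 ± 1.44 (SD, n = 8) over JAK2V617F+ and 2.84 ± 0.92 (SD, n = 9) over JAK2V617F- arrays on the log2 scale, a difference of 2.29 (0.90 to 3.68, adjusted p = 0.202 from limma). Adam17, which releases TNF from the cell surface, differed by 2.32 (0.80 to 3.83, adjusted p = 0.253), and Dpp4 (CD26), another exopeptidase of the cell surface, by -2.41 (-4.58 to -0.23, adjusted p = 0.43). Among 21 of 26 surface antigens of stem and progenitor cells the median difference was 0.36, and Kit differed by 0.21 (adjusted p = 0.957). Of the genes in these last lists the erythropoietin receptor gene Epor differed by 2.61 (0.35 to 4.87, adjusted p = 0.41) and the chemokine receptor gene Cxcr4 by -0.64 (-1.09 to -0.19, adjusted p = 0.303).

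**Figure D4:**
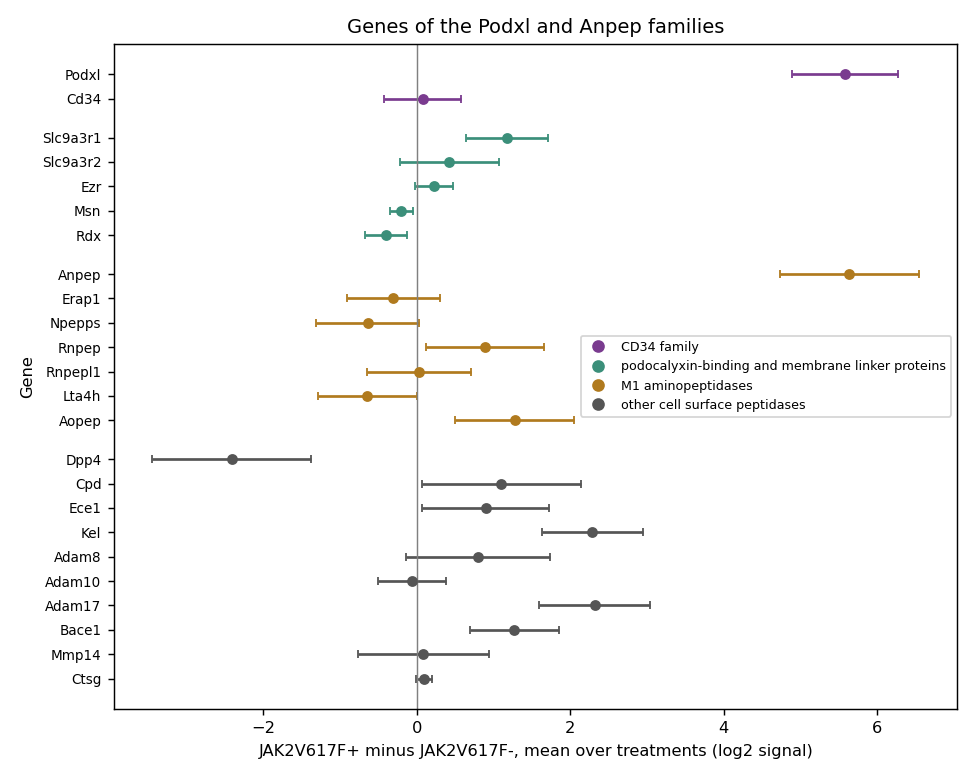
Difference in log2 signal between JAK2V617F+ and JAK2V617F- cells, as the mean over treatments, for Podxl, Anpep and the measured genes of 4 lists. Points are limma estimates and bars standard errors. Podxl at 5.58 and Anpep at 5.64 were chosen for this difference, and among the other genes Adam17 is highest at 2.32 and Dpp4 lowest at -2.41.

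Other markers differed between the genotypes beside Podxl and Anpep. The marker lists here and below were chosen with earlier results of these data known. Their counts past the limma threshold are therefore given as descriptions. Among all probe sets 0.358% passed that threshold and 0.3% were higher in JAK2V617F+ cells. With so low a share, a count of 0 in a list is no result about its genes. In these bulk samples, fewer cells of a type and less RNA per cell cannot be told apart. Of 15 mast cell and basophil genes 10 were measured, and their mean log2 signal ranged from 10.57 to 12.17 in JAK2V617F+ and from 6.44 to 8.46 in JAK2V617F- arrays, with 6 of the 10 higher past the limma threshold. The 11 measured of 21 erythroid genes ranged from 8.41 to 10.61 and from 5.77 to 8.07, with 3 higher past the threshold (Car2, Ermap and Pklr). The 9 measured of 15 megakaryocyte genes ranged from 5.23 to 7.96 and from 4.88 to 5.66, with 0 past the threshold and 2 at an unadjusted p under 0.05, and Vwf at 2.22 in JAK2V617F- arrays.

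Monocyte and granulocyte markers, with which CD13 is usually grouped, were for the most part not higher in JAK2V617F+ cells. Differences above 0 were found for 4 of 15 and 4 of 12 genes of the lists. Between the genotypes 0.358% of all probe sets passed the limma threshold. The 15 measured of 20 monocyte, macrophage and dendritic cell genes ranged from 5.92 to 8.05 in JAK2V617F+ and from 6.56 to 8.80 in JAK2V617F- arrays, with 1 lower past the threshold, H2-Aa, and a median difference of -1.33. The 12 measured of 16 neutrophil and granulocyte genes ranged from 8.85 to 12.10 and from 9.94 to 12.30, with 0 past the threshold and also 0 at an unadjusted p under 0.05, and a median difference of -0.31.

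The mean levels of lymphoid markers overlapped between the genotypes, while most of the genes had differences below 0. The share of all probe sets past the limma threshold was again 0.358%. The 5 measured of 10 B cell genes had a mean log2 signal from 2.55 to 5.16 in JAK2V617F+ and from 2.40 to 6.92 in JAK2V617F- arrays, with 0 past the limma threshold and 0 at an unadjusted p under 0.05. Of these 5 genes 0 had a difference above 0, and the median difference was -1.23. The 6 measured of 15 T and NK cell genes ranged from 6.82 to 8.90 and from 6.89 to 9.19, with 1 higher past the threshold, the granzyme gene Gzmb, and 3 at an unadjusted p under 0.05. Of these 6 genes 2 had a difference above 0, and the median difference was -0.53, with the granzyme gene Gzma at -3.10 (adjusted p = 0.319 from limma) and the granule protein gene Nkg7 at -0.90 (adjusted p = 0.404).

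Within a genotype, the means of the marker lists gave correlations of both signs with each gene. By Pearson r, the mean of the mast cell and basophil genes gave -0.36 with Podxl and -0.01 with Anpep in the 8 JAK2V617F+ arrays. In the 9 JAK2V617F- arrays it gave -0.45 and -0.74. For the erythroid genes the correlations were 0.11 and -0.20 in JAK2V617F+ and -0.42 and -0.14 in JAK2V617F- arrays. For the T and NK cell genes they were -0.72 and -0.11, and -0.13 and -0.72. The B cell genes gave 0.07 and 0.53, and 0.34 and 0.34. The monocyte, macrophage and dendritic cell genes gave -0.27 and 0.19, and 0.36 and 0.29. The neutrophil and granulocyte genes gave -0.03 and -0.39, and -0.30 and 0.36. The megakaryocyte genes gave 0.09 and 0.22, and -0.25 and 0.05. By Spearman rho, Anpep in JAK2V617F- arrays gave -0.37 with the mast cell and basophil genes and -0.50 with the T and NK cell genes. With the erythroid genes in JAK2V617F+ arrays it gave 0.14. TNFR1 BA-treated JAK2V617F- replicate 1, with Anpep at 6.27, had the lowest JAK2V617F- means of the mast cell and T cell lists, 6.44 and 6.89. The part of this array in the correlations was not tested. These are descriptions over few arrays that share experiments and mice, and the part of these cell types in the signals of Podxl and Anpep was not tested.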

How the data were processed

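RNA of sorted Lin-Kit+ cells was hybridised to Affymetrix mouse expression arrays. The deposited table gives log2 signals per probe set, made by the authors with Affymetrix Expression Console, for 10335 probe sets on 18 arrays. Genes counted as measured had a probe set in this table, and all probe sets are those of this table. Their normalization is not stated in the sources used. Values were used as deposited, and 14.4% of them recur elsewhere in the table. Of these probe sets 9651 had a single gene symbol, 27 several and 657 none, in the platform's annotation. Entrez IDs matched GRCm38.p6 RefSeq for 9625, with 0 symbols changed, and a gene was represented by its probe set of highest mean. Limma 3.58.1 in R 4.3.3 was fitted to 6 group means of 17 arrays, with a variance trend, and p-values were adjusted over all probe sets by Benjamini-Hochberg, with 0.05 as threshold. The fit was run on simulated data with independent noise and changes larger than most BA differences given here. This does not show how well smaller differences would be found. The labels name replicates but not whether a number marks an experiment, so p-values measure the spread between these arrays. Their number limits the precision.

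The members and gene lists were chosen with earlier results of these data known. Named genes were the members, measured genes of their families and binding partners, other list genes past the threshold, Kit, and the 5 genes most correlated with each member; Kel, Adam17, Dpp4, Epor, Cxcr4, Tpsab1, Vwf, Cma1 and the lineage antigens were named after their values were seen or as gate markers. Alternatives were all 18 arrays, a replicate block, the compared groups alone, a filter that dropped the dimmest 25% of probe sets, and quantile normalization. Others were no variance trend, array weights, a t-test of treatments paired by replicate number, and leave-one-out. The paper's own paired tests compared the genotypes.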

Additional observations from a re-analysis of the deposited data

Results flagged for a closer look

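The Anpep log2 signal of 8.66 on untreated JAK2V617F+ replicate 3, the array the paper left out, was above the highest untreated JAK2V617F- array, at 2.83, and is outside the comparisons of the report. On the same array Podxl was at 3.85, Tpsb2 at 5.14 and Lif at 2.97, each below its JAK2V617F+ arrays used, while Tpsab1 was at 12.04 and Mycn at 9.26. The effects of the BAs on either gene were not shown to differ between the genotypes, and no test was run for a single array that stands apart within a group.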

How the results depend on the processing

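Over 440 combinations of 1 of the 16 tested differences and 1 alternative setting, 0 passed an adjusted p of 0.05 from its test. Many leave-one-out settings dropped an array outside the comparison and so left the difference itself unchanged. With all 18 arrays, the Podxl difference in JAK2V617F+ cells turned to 1.56 for TNFR1 BA and 1.63 for TNFR2 BA, its BA effects between the genotypes became 1.45 for TNFR1 BA and 2.66 for TNFR2 BA, and the untreated genotype difference moved to 3.62. In the fit with a replicate block, the first pair became 0.044 and 0.11. In a t-test of treated against untreated arrays paired by replicate number, the TNFR1 BA difference was 0.55, over 2 pairs. With array weights the difference between the BAs was -0.14. The Podxl signal of the added array was 3.85, and the cause of the other turns was not tested.

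With single arrays or replicate numbers left out, Podxl in JAK2V617F+ cells ranged from -1.41 to 0.55 for TNFR1 BA, from -0.76 to 0.77 for TNFR2 BA and from -1.30 to 0.9996 between the BAs. It ranged from -0.50 to 0.88 for TNFR1 BA in JAK2V617F- cells and from -1.08 to 0.44 for the TNFR1 BA and from 0.26 to 2.06 for the TNFR2 BA effect between the genotypes. Anpep ranged from -0.85 to 1.57 for TNFR2 BA in JAK2V617F+ cells, from -0.23 to 1.85 for TNFR1 BA and from -1.39 to 0.58 between the BAs in JAK2V617F- cells, and from -0.97 to 1.21 for the TNFR2 BA effect between the genotypes. The genotype difference over the treatments kept its sign, from 5.26 to 5.88 for Podxl and from 4.55 to 6.84 for Anpep, and within TNFR1 BA-treated cells Anpep ranged from 0.90 to 5.69. Of the surface antigens of stem and progenitor cells 0 to 1 passed, the 1 being Cxcr4 without untreated JAK2V617F+ replicate 1. Without replicate 1 or 2, untreated JAK2V617F+ cells had a lone array, assumed to vary like the other groups.

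Among arrays with replicate number 1, 2 or 3, deviations from group means had mean correlations of 0.008, 0.071 and 0.144, and 14 of 17 correlated best with their own number. The block raised the probe sets past the threshold between the genotypes over the treatments from 37 to 67, left 0 in place of 3 for TNFR2 BA in JAK2V617F+ cells, and changed no call for Podxl, Anpep or the 5 lists. With all 18 arrays, 1 in place of 3 probe sets passed for TNFR2 BA in JAK2V617F+ cells, and between the genotypes 4 in place of 8 passed in untreated, 5 in place of 9 in TNFR1 BA and 2 in place of 4 in TNFR2 BA cells.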

Other observations

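In the TNFR1 BA-treated arrays of replicate 1, some of the genes most like Anpep also left the range of the other arrays of their genotype. Rnf128 was at 6.35 in the JAK2V617F+ array, below its other JAK2V617F+ arrays (lowest 7.03), and at 6.54 in the JAK2V617F- array. Enah was at 8.53 in the JAK2V617F- array, where the others reached 4.64, and at 6.79 in the JAK2V617F+ array, within the range of the others. Rhoj was at 4.42 in the JAK2V617F+ array, below its other JAK2V617F+ arrays (lowest 4.65), and at 2.22 in the JAK2V617F- array, within the range of the others. These genes were picked for their likeness to Anpep over the same arrays, so a shared deviation is in part a product of that choice. In the same pair Mycn was at 10.74 and 2.22, Cma1 at 13.81 and 2.98 and Lif at 9.30 and 2.24, each on the side its label gives. In the JAK2V617F- array Cma1 also lay below its other JAK2V617F- arrays, which ranged from 6.68 to 9.86. Kit was at 3.71 in the JAK2V617F+ array, the lowest of the 17 arrays used. These arrays and Cma1 were singled out after their values were seen.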
